A study of Mus musculus with 28 samples.

Results

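The 9 genes described here mark amacrine and horizontal cells, the inhibitory interneurons of the inner and outer retina, and were chosen by name (Tfap2a, Tfap2b, Gad1, Gad2, Slc32a1, Slc6a9, Calb2, Onecut1 and Prox1) from the 23995 genes listed for every library. Ribosome-bound mRNA was measured by axon-TRAP, in which ribosomes carrying an HA-tagged RPL22 are immunoprecipitated and their mRNA is amplified and sequenced. Mice of C57BL/6 background carried the RiboTag allele, which switches to HA-tagged Rpl22 after Cre recombination. Retina and superior colliculus (SC) of Cre-positive animals, and SC of Cre-negative littermates, were sampled at embryonic day E17.5, at P0.5 and P7.5 after birth and in the adult, with 2 libraries for each of the 12 groups. The groups therefore shared the RiboTag allele, and only the Cre-positive ones carried Pax6-alpha-Cre. This transgene is active transiently in progenitors of the peripheral retina, so tagged ribosomes are found in neurons of that region other than retinal ganglion cells (RGCs) as well. According to the study's methods, eyes were homogenized for the retina group, whereas its results speak of dissected retina. Several eyes or SCs were pooled for each precipitation. A further 4 adult libraries, 1 each of retina and Cre-positive SC with and without ribosome run-off, gave read counts.

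Amacrine cells connect bipolar cells, RGCs and each other, and most of them release GABA or glycine. Horizontal cells give feedback to photoreceptors. Tfap2a and Tfap2b encode AP-2 transcription factors that take part in amacrine and horizontal cell differentiation, while Onecut1 and Prox1 encode transcription factors needed for horizontal cells, Prox1 being found in other retinal cells too. Gad1 and Gad2 encode the enzymes that make GABA, Slc32a1 the transporter that loads GABA and glycine into synaptic vesicles and Slc6a9 the membrane glycine transporter GlyT1. Calb2 encodes calretinin, a calcium-binding protein of amacrine cells and of many RGCs. GABAergic neurons are also common in the SC, so Gad1, Gad2 and Slc32a1 are not specific to the eye.

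All 9 genes were above 0 FPKM (fragments scaled to the length of the transcript and to the depth of the library) in at least 1 of the 8 retina libraries. Levels ranged over several orders of magnitude. By median FPKM in retina the order was Tfap2b (135), Calb2 (3.06), Tfap2a (1.76), Slc6a9 (0.348), Gad2 (0.0919), Prox1 (0.0577) and Gad1 (0.0229), with Slc32a1 and Onecut1 at a median of 0. Of the 9, 5 reached 1 FPKM in at least 2 retina libraries and could be tested between stages: Tfap2a, Tfap2b, Prox1, Slc6a9 and Calb2. The same filter kept 4080 of 23991 genes with a number in every library. Tfap2b lay high among these, since 94.95% of them had a lower retina median, compared with 73.3% for Calb2 and 63.8% for Tfap2a.

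The libraries differed in complexity, and this touches each of the genes. Depth, in units of 1000000 fragments and judged from the spacing of low FPKM values, was an estimated 7.08 to 10.9 in retina libraries, 0.511 to 14.4 in SC libraries and at most 2.204 in those of adult SC. On a 2 kb transcript, a floor of 3 fragments was 0.151 to 0.233 FPKM in retina but as much as 3.23 FPKM in SC, so that low levels in SC were often not detectable. PCR reads were not counted by molecular identifiers, so such floors and all intervals below cover counting error only. Adult retina replicate 1 listed 2080 genes above 0 and P7.5 retina replicate 1 listed 4310, whereas the other 6 retina libraries listed 6259 to 8765. In adult retina replicate 1 only Tfap2b and Calb2 of the 9 genes were above 0, and in P7.5 retina replicate 1 there were 4 of them. E17.5 retina replicate 2, the library with the most genes above 0, was the only library with all 9.

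**Figure D1:**
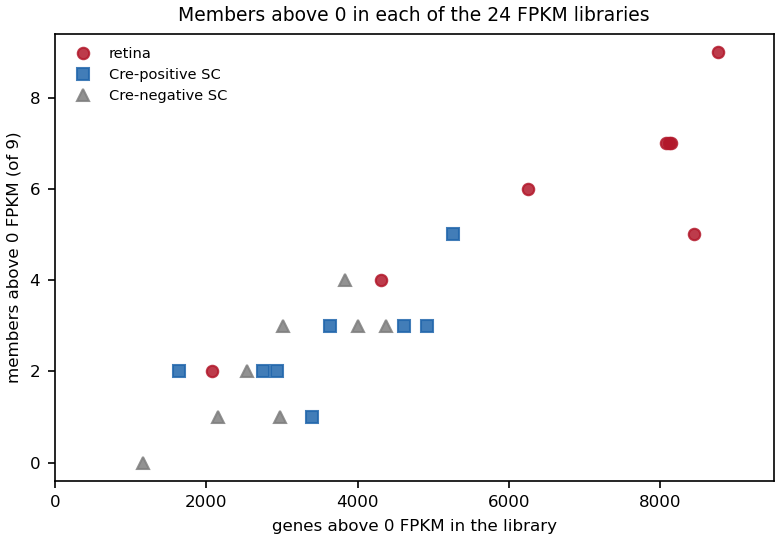
Number of the 9 genes above 0 FPKM (vertical axis) against the number of all genes above 0 FPKM (horizontal axis) in each of the 24 libraries, with retina as circles, Cre-positive SC as squares and Cre-negative SC as triangles. The retina libraries held 2 to 9 of the genes, and the one with the fewest was also the one with the fewest genes in total.

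The transcription factor Tfap2a (ENSMUSG00000021359, chromosome 13, 40715302 to 40738376 of mm10, minus strand) was highest in perinatal retina. Its values were 2.78 and 5.40 FPKM at E17.5 (4.09 ± 1.85, SD, n = 2), 4.46 and 2.42 at P0.5 (3.44 ± 1.44, n = 2), 1.09 and 0.687 at P7.5 (0.890 ± 0.287, n = 2), and 0 and 0.888 in the adult. Every perinatal library (E17.5 and P0.5) was thus above every later one (P7.5 and adult). Neither E17.5 and P0.5 nor P7.5 and adult were separated, as the values of these neighbours in the order overlapped. With bulk samples, fewer cells of a type and less ribosome-bound mRNA per cell cannot be told apart.

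The related Tfap2b (ENSMUSG00000025927, chromosome 1, 19208914 to 19238576, plus strand) followed the same order at a far higher level. It stood at 178 and 787 FPKM at E17.5 (482 ± 430, SD, n = 2), 433 and 222 at P0.5 (328 ± 149, n = 2), 19.1 and 92.3 at P7.5 (55.7 ± 51.8, n = 2), and 4.27 and 92.1 in the adult (48.2 ± 62.1, n = 2). Again the perinatal and the later libraries did not overlap. As a ratio, replicates of a stage differed most in the adult, where the lower value came from the library with 2080 genes above 0. In each of the 7 retina libraries in which both genes were above 0, Tfap2b exceeded Tfap2a by 17.45 to 146 times in FPKM. Reads per kilobase in 1 separate adult retina library gave the reverse order (a ratio of 0.527, described below), so this gap in level is uncertain.

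Later retina (P7.5 and adult) was compared with perinatal retina (E17.5 and P0.5) by limma on log2(FPKM + 1) over the 8 retina libraries. Across the 4080 genes tested, 0.735% were lower and 0.221% higher in later retina at a Benjamini-Hochberg adjusted p below 0.05. Of the 5 genes tested here, 1 was lower and none was higher. Tfap2b fell by 3.47 on the log2(FPKM + 1) scale, from a mean of 8.42 to 4.95 (SE 0.98, adjusted p = 0.0423). For Tfap2a the difference was −1.52 (SE 1.05) and did not pass (adjusted p = 0.696). The median difference of the 3 transcription factors tested was −1.52, and that of all genes tested 0.06. An exact two-sided permutation test of single genes gave p = 0.0286 for each, unadjusted, which is the smallest value that 8 libraries allow; the other 7 of the 9 genes gave exact p-values of 0.343 to 1.

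The outcome for both genes depended on the fit. When the same contrast was taken from the fit of all 24 libraries, which shares 1 spread and tests 7193 genes, Tfap2a passed (adjusted p = 0.0308) and Tfap2b did not (adjusted p = 0.365). Tfap2a was at or near 0 in SC and passed the filter of that fit only through retina. Its spread was taken over these low SC libraries too, so this pass gives no support to a difference. For Tfap2b the call was also lost with median-ratio scaling (adjusted p = 0.0565), with no filter on low values (adjusted p = 0.591), and without any of 6 of the 8 libraries, namely either replicate of E17.5 or P0.5, P7.5 replicate 1 and adult replicate 1 (adjusted p = 0.0744 to 0.864). Without both low-complexity libraries, P7.5 and adult replicate 1, the fall of Tfap2b was 1.88 (adjusted p = 0.311). Its direction held under every alternative tried.

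Some markers of other cells of the eye also differed over these stages. The summed FPKM of 10 photoreceptor genes rose from 6.35 to 46.6 in the 4 perinatal libraries to 331.5 to 2529 in the 4 later ones, with 3 of the 10 called higher, and 8 lens genes, of which none was called, summed to 134.5 to 314 and 302 to 1019 FPKM. Among 9 RGC genes, 1 of 5 tested was lower in later retina, the transcription factor Pou4f1 (adjusted p = 0.0226). The part that these shares of the libraries had in the values of Tfap2a and Tfap2b was not tested.

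The horizontal cell factor Onecut1 (ENSMUSG00000043013, chromosome 9, 74861921 to 74891781, plus strand) was above 0 only in E17.5 retina, at 0.0631 and 0.268 FPKM. It was listed at 0 in the other 22 FPKM libraries, although the separate adult retina library described below held 13 reads of Onecut1 (2.77 CPM). Onecut1 did not pass the filter for limma. Its exact unadjusted permutation p was 0.429 between later and perinatal retina and 0.0667 between retina and both SC sources. Prox1 (ENSMUSG00000010175, chromosome 1, 190118035 to 190170714, minus strand) reached 1 FPKM in retina only at the later stages. Its retina values were 0 and 0.0832 FPKM at E17.5, 0.141 and 0 at P0.5, 0.0323 and 1.19 at P7.5, and 0 and 1.33 in the adult. At both later stages the second replicate was high and the first, of low complexity, was at or near 0, so the stages overlapped. The difference between later and perinatal retina was 0.52 (SE 0.48, adjusted p = 0.818). It was 1.10 when both of those first replicates were left out, which is a description only, since these libraries held its low later values.

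The enzymes and transporters of GABA and glycine were low in retina, and in FPKM none of the 4 exceeded a median of 0.348. Gad1 (ENSMUSG00000070880, chromosome 2, 70553072 to 70602014, plus strand) read 0 and 0.0719 FPKM at E17.5, 0.0458 and 0 at P0.5, 0 and 0.189 at P7.5, and 0 and 0.656 in the adult. Gad2 (ENSMUSG00000026787, chromosome 2, 22622205 to 22693874, plus strand) read 0.133 and 0.664 at E17.5, 0.0257 and 0.0505 at P0.5, 0 and 0.264 at P7.5, and 0 and 0.389 in the adult. Neither reached 1 FPKM in any retina library, although 188 reads of Gad1 (40.1 CPM, reads scaled to the library total) were counted in the separate adult retina library described below. Slc32a1 (ENSMUSG00000037771, chromosome 2, 158610767 to 158615748, plus strand) was above 0 in a single library of the 24, E17.5 retina replicate 2, at 0.0837 FPKM. All stages overlapped for Gad1 and Slc32a1, and so did neighbouring stages for Gad2.

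Slc6a9 (ENSMUSG00000028542, chromosome 4, 117834506 to 117875198, plus strand) was the most evenly detected of the 4 transmission genes. In retina it read 0.235 and 0.532 FPKM at E17.5, 0.317 and 0.325 at P0.5, 0.372 and 1.09 at P7.5, and 0 and 1.05 in the adult. Later and perinatal retina differed by 0.21 on the log2(FPKM + 1) scale (SE 0.58, adjusted p = 0.987), a difference smaller than its SE. Its locus overlaps 2 protein-coding genes on the opposite strand, Ccdc24 and B4galt2. Whether the counting used strand is not given in the sources used here, so reads of either strand cannot be told apart.

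Calb2 (ENSMUSG00000003657, chromosome 8, 110137502 to 110168210, minus strand) was detected in 7 of 8 retina libraries and without order over time. It stood at 0.746 and 6.95 FPKM at E17.5, 1.67 and 2.16 at P0.5 (1.92 ± 0.346, SD, n = 2), 0 and 5.69 at P7.5, and 7.97 and 3.96 in the adult (5.97 ± 2.84, n = 2). Neighbouring stages in the order of their means overlapped throughout. The later minus perinatal difference was 0.34 (SE 1.16, adjusted p = 0.987), and its sign changed with a pseudocount of 0.1.

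Single steps in time gave no further call for the 5 genes. Any difference among the 4 stages was called for 0.539% of the 4080 genes and for 0 of the 5, the nearest being Tfap2b (unadjusted p = 0.00434, adjusted p = 0.34, limma). From E17.5 to P0.5, 0% of genes were called in either direction, with 34 genes at an unadjusted p under 0.05. From P0.5 to P7.5, 0.0245% were called higher and 0.049% lower. From P7.5 to adult, 0% were called in either direction, with 57 genes at an unadjusted p under 0.05. The differences of Tfap2b over these 3 steps were −0.27 (SE 1.38), −2.85 (SE 1.38) and −0.97 (SE 1.38), and those of Tfap2a were −0.19, −1.20 and −0.45 (SE 1.48 for each). The largest step of both genes was thus the one from P0.5 to P7.5, but with 2 libraries a stage it did not pass the test (unadjusted p = 0.0391 for Tfap2b and 0.417 for Tfap2a, adjusted p = 1 for both, limma).

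**Figure D2:**
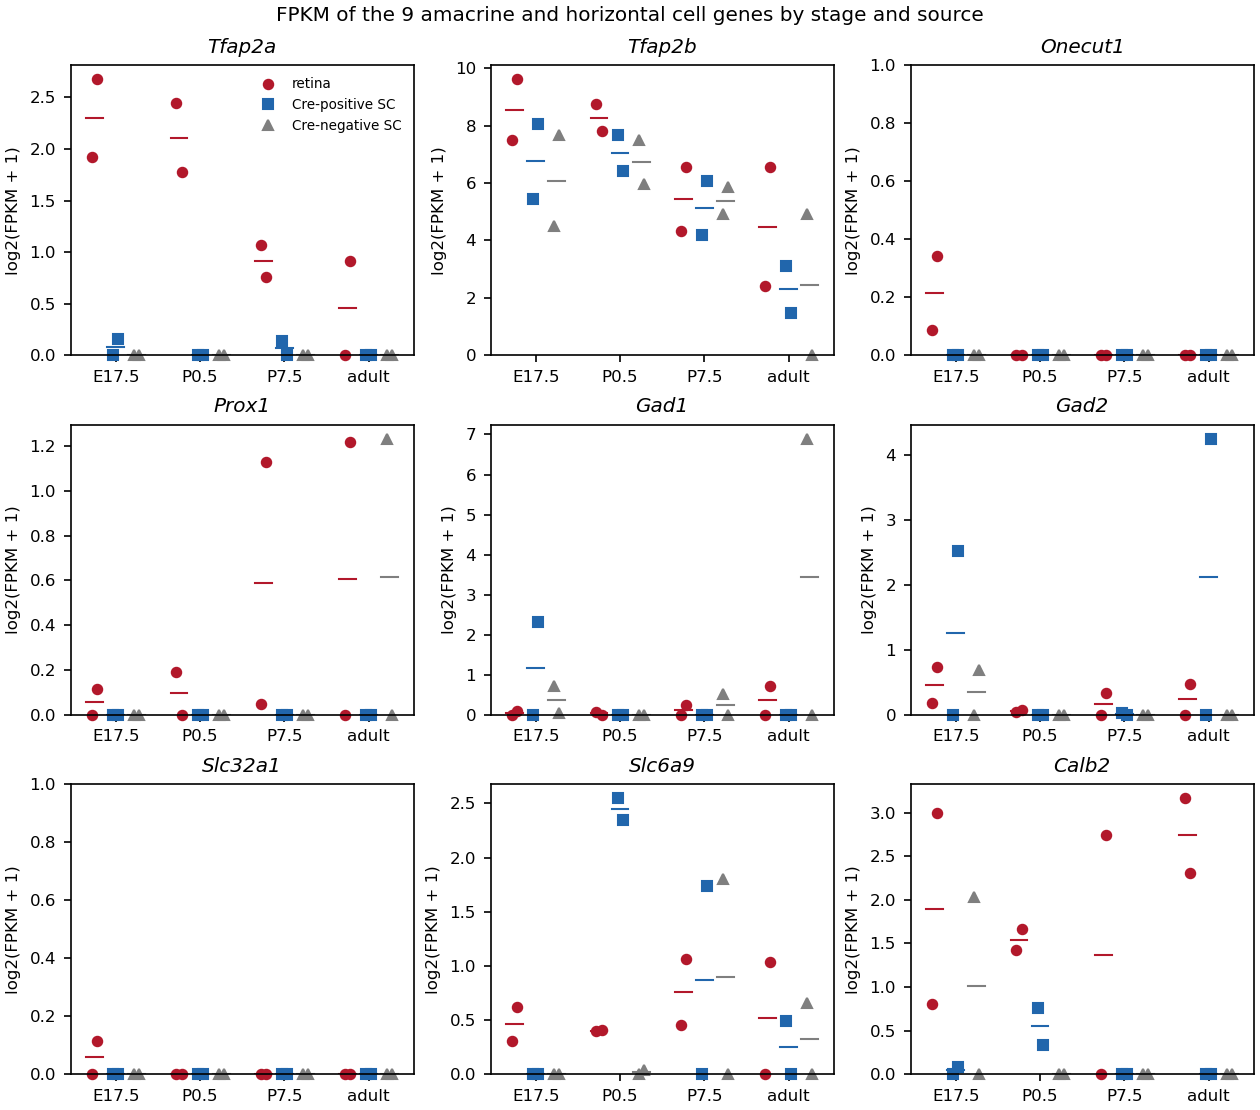
log2(FPKM + 1) of each of the 9 genes (1 panel a gene, each with its own vertical scale) by stage, with retina as circles, Cre-positive SC as squares and Cre-negative SC as triangles; each point is 1 library and each short bar the mean of 2. Tfap2a is seen in retina with at most 0.115 FPKM in SC, Tfap2b is high in all 3 sources, and Onecut1 and Slc32a1 are above 0 only in E17.5 retina.

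To see how far the genes were particular to the eye, retina was compared with both SC sources over the 4 stages in a fit of all 24 libraries, in which 7 of the 9 genes and 7193 in all could be tested. The contrasts share the retina libraries. Against Cre-negative SC, in which no ribosome is tagged, 2.5% of genes were higher and 2.91% lower in retina, and of the 7 genes 2 were higher and none lower. Against Cre-positive SC, 3.66% were higher and 8.13% lower, and of the 7 genes again 2 were higher and none lower. The median difference over all genes tested was 0.03 and −0.21, that of the 3 transcription factors tested 1.44 and 1.38, and that of the 3 GABA and glycine genes tested 0.14 and −0.36.

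Tfap2a was one of the genes higher in retina, in both comparisons. It reached 1 FPKM in 5 of 8 retina libraries and in no SC library. It therefore entered the test through the group where it is high, and its calls only describe these levels. Tfap2a was at 0 in all 8 Cre-negative SC libraries. In Cre-positive SC it was above 0 in 2 of 8 libraries, E17.5 replicate 2 with 0.115 FPKM and P7.5 replicate 1 with 0.0977 FPKM. At E17.5, P0.5 and P7.5 both retina libraries were above all 4 SC libraries of the stage, and in the adult 1 of 2 was. The difference in log2(FPKM + 1) was 1.44 from Cre-negative SC (SE 0.23, adjusted p = 0.00322) and 1.41 from Cre-positive SC (SE 0.23, adjusted p = 0.00159); with SC at or near 0, these sizes depend on the pseudocount. With labels exchanged within stage over the 24 libraries, an exact two-sided permutation test gave p = 9.88e-05 against both SC sources together. In 13 of 16 SC libraries, 3 fragments on Tfap2a would have given less than the mean FPKM of retina at that stage, so the depth of these 13 was enough to show a level like that of retina, while 3 of the 4 adult SC libraries were too shallow for it. By counts, 1 further adult Cre-positive SC library held 103 reads of Tfap2a (31.6 CPM), compared with 272 (58.0 CPM) in adult retina, so a low level in adult SC was not seen in every measurement. Leaving out P0.5 Cre-positive SC replicate 1 put the second adjusted p at 0.0503.

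Calb2 was the other gene higher in retina. It reached 1 FPKM in 6 of 8 retina libraries and in 1 Cre-negative SC library. Calb2 thus also entered the test through retina, and its calls only describe these levels. Its only value above 1 FPKM in SC was 3.08, in E17.5 Cre-negative SC replicate 1, which is the shallowest library and one where this level is under 3 fragments. In Cre-positive SC it read 0.0619 in E17.5 replicate 2, and 0.698 and 0.262 at P0.5, and 0 in the other 5. Retina was above all SC libraries of the stage at P0.5 and in the adult. The differences were 1.63 from Cre-negative SC (SE 0.44, adjusted p = 0.0393) and 1.74 from Cre-positive SC (SE 0.44, adjusted p = 0.0185), and the exact permutation test against both sources gave p = 0.000494. Against Cre-negative SC the call was lost with no filter on low values (adjusted p = 0.051) and, for 9 of the 16 libraries, when that library was left out: E17.5 retina replicate 2, P7.5 retina replicate 2, adult Cre-negative SC replicate 2, and either replicate of P0.5 retina, P0.5 Cre-negative SC or P7.5 Cre-negative SC. With either replicate of P0.5 Cre-positive SC left out, the call against Cre-positive SC was lost as well (adjusted p = 0.0959 and 0.0782).

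Tfap2b was not particular to retina. In Cre-positive SC it stood at 42.6 and 266 FPKM at E17.5, 201 and 83.8 at P0.5, 17.2 and 65.9 at P7.5, and 7.61 and 1.79 in the adult. In Cre-negative SC it stood at 21.8 and 201, 178 and 61.4, 29.2 and 56.8, and 29.3 and 0. Retina was above all SC libraries of the stage only at P0.5. The differences of retina from Cre-negative SC (1.52, SE 0.87, adjusted p = 0.36) and from Cre-positive SC (1.38, SE 0.87, adjusted p = 0.314) did not pass. In SC without tagged ribosomes Tfap2b thus also had its highest values, 201 and 178 FPKM, in perinatal libraries. The fall in retina differed from that in Cre-negative SC by −0.98 (SE 1.75, adjusted p = 0.928, limma), so the stage difference described above was not shown to be particular to the eye. For Tfap2a the same test gave −1.52 (SE 0.45, unadjusted p = 0.00382, adjusted p = 0.122). With Tfap2a at 0 in all 8 Cre-negative SC libraries, this value only repeats its difference within retina. It cannot tell whether the fall of Tfap2a is particular to the eye. Across the 7193 genes, this stage difference was higher in retina for 1.49% and lower for 0.306%, and it was called for 0 of the 7.

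**Figure D3:**
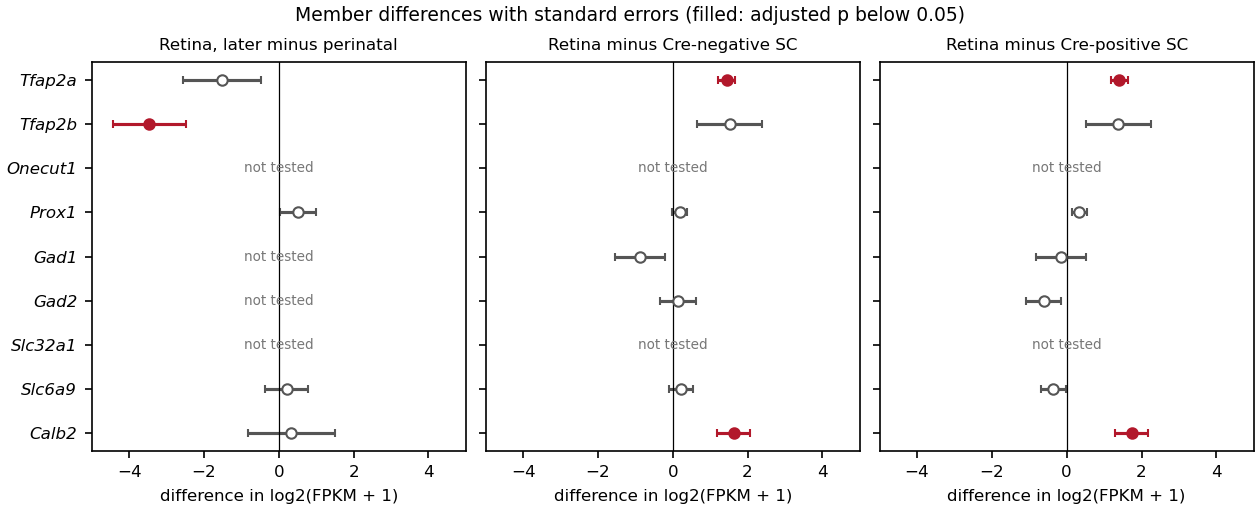
Difference in log2(FPKM + 1) (horizontal axis) with its SE for each gene in 3 comparisons, later minus perinatal retina, retina minus Cre-negative SC and retina minus Cre-positive SC; filled points have an adjusted p below 0.05 over all genes tested and "not tested" marks genes under the filter. Tfap2b lies at −3.47 in the first, and Tfap2a and Calb2 lie 1.41 to 1.74 above 0 in the other 2.

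Gad1 and Gad2 were above 0 in a few SC libraries only, and in 2 of these each exceeded its highest retina value. Gad1 read 118 FPKM in adult Cre-negative SC replicate 1 but 0 in replicate 2, and 4.01 in E17.5 Cre-positive SC replicate 2. It read 0.635, 0.0225 and 0.42 in E17.5 replicates 1 and 2 and P7.5 replicate 1 of Cre-negative SC, and 0 in the other 11 SC libraries. Yet 1 further adult Cre-positive SC library, measured by counts, held 497 reads of Gad1 (152 CPM), compared with 188 (40.1 CPM) in adult retina. Gad2 read 18.0 FPKM in adult Cre-positive SC replicate 2 and 4.70 in E17.5 Cre-positive SC replicate 2, and at most 0.617 in the other 14. The differences of retina from Cre-negative SC were −0.88 (SE 0.68, adjusted p = 0.533) for Gad1 and 0.14 (SE 0.47, adjusted p = 0.922) for Gad2, and those from Cre-positive SC were −0.15 (SE 0.68, adjusted p = 0.908) and −0.62 (SE 0.47, adjusted p = 0.423). With adult Cre-negative SC replicate 2 left out, Gad1 was called lower in retina (−1.74, adjusted p = 0.00834), and with adult Cre-positive SC replicate 1 left out, so was Gad2 (−1.15, adjusted p = 0.0368). In each case the library left out was at 0 and 1 high library remained alone in its group. Both genes reached 1 FPKM only in SC and so entered the test through that group, and these calls give no support to a difference.

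Slc6a9 had its highest values in P0.5 Cre-positive SC, 4.86 and 4.10 FPKM, against 0 and 0.0272 in Cre-negative SC and 0.317 and 0.325 in retina of that stage. The remaining SC values above 0 were 2.34 (P7.5) and 0.409 (adult) in Cre-positive SC and 2.49 (P7.5) and 0.578 (adult) in Cre-negative SC, each in 1 of 2 replicates. At P0.5 both Cre-positive SC libraries were therefore above both libraries of the other sources, whereas over the 4 stages Cre-positive and Cre-negative SC differed by 0.58 (SE 0.33, adjusted p = 0.372). Prox1 in SC was above 0 in adult Cre-negative SC replicate 1 alone, at 1.35 FPKM, and its differences from retina were 0.18 (SE 0.21, adjusted p = 0.699) and 0.34 (SE 0.21, adjusted p = 0.296). Between the 2 SC sources, 8.91% of genes were higher with Cre and 2.21% lower, and of the 7 genes none was called in either direction, with the smallest unadjusted p at 0.0964 (limma) for Slc6a9. A difference between SC with and without tagged axonal ribosomes was therefore not shown for these genes over the 4 stages. Gad1 (−1.59, lower with Cre, adjusted p = 0.00609) and Gad2 (1.29, higher with Cre, adjusted p = 0.0182) were called when adult Cre-negative SC replicate 2 and adult Cre-positive SC replicate 1, respectively, were left out. Here too the library left out was the one at 0 beside the single high one, so these calls support no difference.

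Further genes of these cells and of inhibitory transmission were detected in part. Of 26 other amacrine cell genes, 7 reached 1 FPKM in 2 retina libraries and 6 were at 0 in all 8. Over all 23991 genes, 4080 reached that level and 11756 were at 0 in all 8. The list was therefore not detected less often than genes in general. Among its genes at 0 were the cholinergic markers Chat and Slc5a7 and the dopaminergic marker Th. Slc18a3, another cholinergic marker, reached 1 FPKM in 7 of 8 retina libraries (median 3.72). None of the 7 genes tested was called between perinatal and later retina (median difference −0.05, compared with 0.06 for all genes tested). Single genes lay on both sides, such as Barhl2 at −2.77 (SE 1.26) and Cck at 2.28 (SE 0.93). Against SC, Pax6, a transcription factor kept by mature amacrine cells and RGCs, was higher in retina by 1.70 (SE 0.35, adjusted p = 0.0105, Cre-negative) and 1.83 (SE 0.35, adjusted p = 0.00349, Cre-positive). Pax6 was the only one of 12 tested that was higher, and was above 0 in 7 of 8 retina and 2 of 16 SC libraries. It reached 1 FPKM in 7 of 8 retina libraries and was at most 1.36 FPKM in SC. Pax6 thus entered the test largely through retina, and its calls only describe these levels. Neurod2 was lower in retina than in Cre-positive SC by a difference of −0.75 (SE 0.18, adjusted p = 0.0128, limma). Its retina values were at most 0.616 FPKM, so it entered the test through SC, and this call gives no support to a difference. The medians of these 12 genes, 0.08 and −0.13, lay close to those of all genes.

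Of 7 other horizontal cell genes, Sall3 alone reached 1 FPKM in 2 retina libraries, with 1.064 to 8.73 FPKM, and it was also present in all 16 SC libraries. Calb1, Lhx1 and Gja10, 3 of the 7, were at 0 in all 8 retina libraries. Over all 23991 genes, 4080 reached 1 FPKM in 2 retina libraries and 11756 were at 0 in all 8. Both counts of this short list were thus near the shares of all genes. Of 18 other genes of GABA and glycine transmission, 2 were tested between stages and 5 between sources, and none was called. Medians were 0.90 between stages, −0.20 against Cre-negative SC and −0.45 against Cre-positive SC.

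In the 8 retina libraries, 9 RGC genes summed to 108 to 7434 FPKM, most of it Pou4f1 (106 to 7381). In SC the same genes summed to 28.8 to 3507 FPKM with Cre and 0 to 2060 without. In retina, 8 lens genes summed to 134.5 to 1019 FPKM, and 4 of the 6 pigment epithelium genes were above 0 in at least 1 library. The retina group thus also held mRNA of these lens genes, and its tissue of origin was not tested. Among 10 genes of midbrain GABAergic and collicular neurons, 8 were at 0 in retina, and the sum was 0 to 17.4 FPKM there, nearly all of it Gata3. That sum was 14.6 to 584 FPKM in Cre-positive and 12.5 to 1194 in Cre-negative SC. Gata3 was lower in retina by −4.97 (SE 0.61, adjusted p = 0.00104, Cre-negative) and −5.38 (SE 0.61, adjusted p = 0.000473, Cre-positive). In adult Cre-negative SC replicate 1, the library with Gad1 at 118 FPKM and Prox1 at 1.35 FPKM, photoreceptor genes summed to 115 and lens genes to 256 FPKM, while photoreceptor genes summed to at most 8.52 and lens genes to at most 15.1 in the other 15 SC libraries. Their part in the values of that library was not tested.

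The other lists were tested in the same fits. Against Cre-negative SC, where 2.5% of all genes were higher and 2.91% lower, genes higher in retina numbered 1 of 8 tested for RGCs, 1 of 10 for photoreceptors, 1 of 7 for bipolar cells, 2 of 6 for Mueller glia, 3 of 8 for lens and 0 of 3 for pigment epithelium. Genes lower in retina numbered 1 of 6 for midbrain neurons, 1 of 3 for oligodendrocytes and 0 of 4 for astrocytes. Against Cre-positive SC, where 3.66% were higher and 8.13% lower, those higher were 2 of 8, 3 of 10, 1 of 7, 2 of 6, 5 of 8 and 1 of 3 in the same order, and those lower 3 of 6, 1 of 3 and 1 of 4, with 1 RGC and 1 bipolar cell gene also lower. Between later and perinatal retina, none was called among 6 bipolar cell, 6 Mueller glia, 8 lens, 3 pigment epithelium, 1 midbrain, 2 oligodendrocyte and 2 astrocyte genes tested.

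Some genes followed the tested members closely over the 24 libraries, which share stages, sources and depth; Pearson correlations of log2(FPKM + 1) are given as a description over 7192 other genes. Tfap2a was most like Dmap1 (r = 0.944), Tmem186 (r = 0.938) and Mbnl3 (r = 0.937). Of these, Dmap1 was above 0 in 6 retina libraries and in no SC library. Tfap2b was most like Dvl3 (r = 0.934), Tmem151b (r = 0.927) and Mn1 (r = 0.915), which like Tfap2b itself were high in both retina and SC, Mn1 with 78.0 to 2415 FPKM in retina and up to 1618 in SC. Calb2 was most like Tspan7 (r = 0.932), H2afv (r = 0.927) and Rpl35a (r = 0.906). Genes like Slc6a9 included Ndufaf7 (r = 0.921) and Lmna (r = 0.891), and Prox1 was most like 2310022A10Rik (r = 0.993), Tfpi (r = 0.993) and Rd3 (r = 0.992), where few libraries above 0 set the value. None of these is a member of the list. Between members over the 8 retina libraries, r was 0.91 for Tfap2a with Tfap2b and 0.90 for Slc6a9 with Prox1.

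During run-off, initiation is blocked with harringtonine and ribosomes already elongating complete their proteins and are released from the mRNA. The reads of the 9 genes were compared with and without it in adult tissue. Each condition is 1 library, so no difference has a replicate check. Reads on genes numbered 4686284 in retina without run-off and 315009 with it (6.72%), and 3262914 and 349395 in SC (10.7%). In retina without run-off, 8 of the 9 genes had reads: Tfap2a 272, Tfap2b 241, Gad1 188, Calb2 110, Slc6a9 61, Gad2 54, Onecut1 13 and Prox1 3. Slc32a1 had none, which allows up to 3 reads, or 0.64 CPM. With run-off, Tfap2a kept 18 reads, 6.62% of those without (exact 95% confidence interval 3.86 to 10.7), Gad1 4 (2.13%, 0.574 to 5.54), Slc6a9 5 (8.20%, 2.57 to 20.2), Calb2 4 (3.64%, 0.974 to 9.58) and Gad2 1 (1.85%, 0.046 to 10.8), and Onecut1 and Prox1 had none. All of these shares had intervals that held the 6.72% of the whole library, except that of Gad1, which lay below it.

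Tfap2b kept 108 reads in retina, 44.8% of those without run-off (exact interval 35.4 to 56.5), so its share of the library was 6.67 times that without run-off. In Cre-positive SC it went the other way, from 1413 reads to 3 (0.212%, interval 0.0437 to 0.622), a share of the library 0.0198 times that without run-off. Gad1 went from 497 to 0 reads in SC and Tfap2a from 103 to 0, against Gad2 from 139 to 17 (12.2%, interval 6.93 to 20.3). The other 5 genes had no reads in either SC library. The intervals compare pairs of libraries, not conditions. The study's methods state that input was set by cDNA yield, which bears on any scaling by library total.

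**Figure D4:**
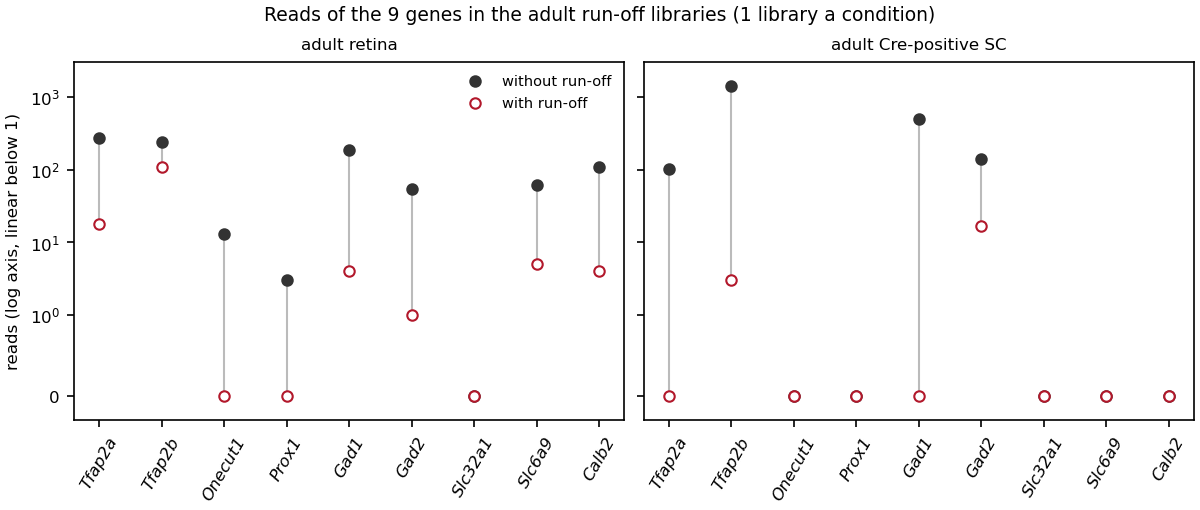
Reads on each of the 9 genes (vertical axis, log scale that is linear below 1) in adult retina (left) and adult Cre-positive SC (right), without run-off (filled) and with run-off (open), 1 library each. Tfap2b falls least in retina, from 241 to 108 reads, and from 1413 to 3 in SC.

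The count libraries also gave another order of the AP-2 genes than the FPKM libraries. Per kilobase of the longest protein-coding transcript, adult retina without run-off held 41.1 reads of Tfap2b and 78.0 of Tfap2a, a ratio of 0.527, while in FPKM the ratio was 104 in adult retina replicate 2. The ratio of FPKM to CPM was 1.79 for Tfap2b there, compared with a median of 0.0681 over 3061 genes with at least 50 reads, and 96% of those genes had a lower ratio. Those of Tfap2a (0.0153), Gad1 (0.0164), Gad2 (0.0338), Slc6a9 (0.0808) and Calb2 (0.169) lay between the 20.4th and the 69.7th percentile. In adult retina replicate 1, where Tfap2b was at 4.27 FPKM, its ratio was 0.083 and lay at the 40.8th percentile of 1292 genes. In adult Cre-positive SC it went the other way, with 433 CPM of Tfap2b against 7.61 and 1.79 FPKM, ratios of 0.0176 and 0.00413 that were above those of 24.2% and 21.1% of genes. By counts Tfap2b was therefore higher in SC (433 CPM) than in retina (51.4 CPM), 1 library each, and by mean FPKM higher in retina. The level of this gene, and the direction of its difference between adult retina and SC, are uncertain.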

How the data were processed

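Ribosome-bound mRNA from retina and SC was sequenced in 24 libraries (12 groups of 2) and in 4 run-off libraries without replicates. The authors mapped reads to mm10 with TopHat2 2.0.12 and deposited FPKM per gene from Cufflinks 2.2.1 for the former and the raw count of reads per gene from HTSeq 0.6.1p1 for the latter. Groups came from the sample labels. No label says that replicates were separate animals, so p-values measure the spread between these libraries, which may be partly technical. The 9 genes and all comparison lists were chosen with earlier results of these data known.

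Values of log2(FPKM + 1) were compared in limma 3.58.1 (R 4.3.3; robust empirical Bayes with an intensity trend) for genes at 1 FPKM or more in at least 2 libraries of the fit. A log difference on this scale understates the change of low genes. Later and perinatal retina were fitted over the 8 retina libraries, sources over all 24. P-values are two-sided, with Benjamini-Hochberg adjustment over all genes tested and a threshold of 0.05. Exact permutation tests of single genes are unadjusted, over 9 genes. A gene with a missing entry in any library (4 of 23995) was left out. Depth was estimated from the steps between low values of FPKM times length, with 64.3% to 77.4% of low values within 0.1 of a whole number of fragments. Coordinates and lengths are those of GENCODE for GRCm38 (mm10).

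The genes named are the 9, the 3 genes most like each tested member, and from the other lists those with the smallest p among called genes or else the highest mean FPKM, as far as they bear on the 9; some genes that this rule names are not reported here. Chat, Slc5a7, Th, Slc18a3, Calb1, Lhx1 and Gja10 were named after their values were seen. On simulated data with the spread of the real libraries, a difference of 4 on the log2 scale between later and perinatal retina was recovered for 48% of changed genes among 4080 and a difference of 2 for 4%; between retina and Cre-negative SC the shares were 90% and 59% among 7193. Alternatives were a pseudocount of 0.1, no filter, median-ratio scaling, the replicate number as a block, the spread of all 24 libraries for retina, and each library left out; leaving out P7.5 and adult retina replicate 1 together was added after seeing the data. Exact tests used scipy 1.17.1.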

Additional observations from a re-analysis of the deposited data

How the results depend on the processing

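Of the 5 genes tested between later and perinatal retina, 1 was called, and 0 were with no filter on low values, with median-ratio scaling or with the replicate number as a block. Leaving out each of the 8 libraries gave 0 to 1, and the cause was not tested. Against Cre-negative SC, 2 of 7 were called, and 1 with no filter or with the replicate block (Calb2, adjusted p = 0.068, was lost). Leaving out each library gave 1 to 2 against Cre-negative SC, 0 to 3 against Cre-positive SC, and 0 to 1 for the F test over stages, for Cre-positive against Cre-negative SC and for the difference in stage change; it gave 0 to 0 for the 3 single steps between stages. Signs reversed with a pseudocount of 0.1 for Calb2 between stages (−0.08) and Gad1 against Cre-positive SC (0.05), and with libraries left out for Calb2 between stages (−0.35 to 1.02) and Slc6a9 against Cre-negative SC (0 to 0.45), none of them called. The block also removed the call of Tfap2b between stages (adjusted p = 0.0639) and changed no other call of a member. Deviations of same-numbered libraries of a stage correlated at −0.21 to 0.429, above 0.1 in 8 of 12 pairs of sources, including all 6 at P0.5 and P7.5 and none of 3 in the adult. The study's methods state that mice with and without Cre came from the same litters, but no source used here ties a replicate number to a litter, so the numbers were not taken as pairs.

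Genes called across the whole table varied as well, with 39 between later and perinatal retina, against 23 with median-ratio scaling, 0 with no filter, 70 with the spread of 24 libraries (7193 genes tested), 6 to 87 with 1 library left out and 235 (232 higher) without P7.5 and adult replicate 1. With 1 library left out, the other library of its group was taken to vary like the rest. Against Cre-negative SC the 389 calls became 101 to 864 with 1 library left out and the share called higher moved from 180 of 389 to 335 of 465 with a pseudocount of 0.1. The count was 996 (816 higher) without P7.5 and adult retina replicate 1, and 523 (331 higher) with no filter. Against Cre-positive SC the 848 (263 higher) became 51 to 1197 with 1 library left out, and 605 (333 higher) with the pseudocount of 0.1. Between both SC sources the 800 became 423 with that pseudocount and 105 to 1195 with 1 library left out. For any difference among stages the 22 became 0 with no filter or without both replicates 1, 1 with median-ratio scaling, 47 with the spread of 24 libraries and 2 to 61 with 1 left out. For the difference in stage change the 129 became 63 with the pseudocount of 0.1, 261 with no filter, 72 with the block, 348 without both replicates 1 and 11 to 706 with 1 left out. Median-ratio scaling moved the median of all genes between stages from 0.06 to −0.06, and the pseudocount of 0.1 moved it against Cre-negative SC from 0.03 to 0.49. Depth limits the low genes most. For Slc32a1, Gad1 and Onecut1, 3 fragments corresponded to more than the mean of retina at that stage in 16, 13 and 13 of 16 SC libraries, so a level like that of retina could not be seen there.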
